A study of Mus musculus with 6 samples.

Results

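The genes that control passage through the G1 phase of the cell cycle were followed in 6 mouse brain tumor libraries. They comprised the D cyclins Ccnd1, Ccnd2 and Ccnd3, their kinases Cdk4 and Cdk6, the INK4 inhibitors Cdkn2a, Cdkn2b and Cdkn2c, the inhibitor Cdkn1b and the retinoblastoma gene Rb1. These 10 genes were taken by symbol from a table of 24537 genes, and all 10 passed the filter on low counts. The tumors were made in CD-1 IGS mice by in utero electroporation, a method that injects DNA into the embryonic brain and uses electric pulses to bring it into cells there. All 6 libraries were titled as carrying PdgfraD482V, a mutant platelet-derived growth factor receptor, and DNp53. The titles of 3 libraries add FOXR2, a forkhead factor, and those of the other 3 name them as Control. Tumor age, the promoters driving the constructs and whether each sample was a different animal are not stated in the labels, so p-values cover the spread between these samples alone.

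D cyclins are made in response to growth factor signals and activate CDK4 and CDK6, which phosphorylate the retinoblastoma protein and so release E2F transcription factors. INK4 proteins bind CDK4 and CDK6 directly and keep them from the D cyclins, while the protein of Cdkn1b binds complexes of cyclins with their kinases and blocks chiefly those of CDK2. In glioma this pathway is a frequent target of genetic change, commonly by loss of the INK4 genes at the Cdkn2a and Cdkn2b locus, by gain of Cdk4 or Cdk6, or by loss of Rb1.

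Each library held 13429489 to 17927025 counts. A sample sheet deposited beside the counts names the groups the other way round for all 6 libraries, and Foxr2 itself had 22, 1 and 7 counts under the FOXR2 titles and 4, 10 and 7 under the Control titles, which did not settle the matter. Groups are therefore called by their titles, and every direction below turns round if the sheet is right. Summed markers of oligodendrocyte precursors were high in all libraries, at 5629 to 9979 CPM (counts relative to a library size adjusted with TMM factors). The sums were 9979, 7407 and 9006 CPM under the FOXR2 titles and 6411, 5629 and 6205 CPM under the Control titles. The groups did not overlap in this sum, as in 30.3% of single genes tested. The part of these cells in the results below was not tested. Pdgfra, the gene of the construct in all 6 titles, is among these markers, with 2020 to 3600 CPM. The part of the construct in that count was not tested. Microglia and macrophage markers summed to 1787 CPM in FOXR2 replicate 2 and to 6.33 to 15.3 CPM elsewhere. Mature oligodendrocyte markers summed to 5175 CPM in FOXR2 replicate 2 and 3888 in Control replicate 3, against 220.3 to 1693 CPM in the other 4. Where 3 values are given for a group, they stand in the order of replicates 1, 2 and 3. In bulk RNA, fewer cells of a type and less RNA per cell cannot be told apart.

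The tumors expressed a G1 program led by Cdk4, Ccnd1 and Cdkn2a per length of transcript, with hardly any Cdk6. No member passed the test between titles: edgeR's quasi-likelihood test called 0 of the 10 at an adjusted p under 0.05, where it called 2.29% of all 13101 genes tested. Of the 10, 4 had an unadjusted p under 0.05, all with higher fitted values under the FOXR2 titles, against 24.9% of all genes in either direction and 11.9% in that direction. DESeq2 called 1 member, Cdkn2c, against 10.3% of the 18299 genes it gave a p-value, a larger set without the low-count filter. DESeq2's default filter can leave low-count genes in that set without an adjusted p. Their number was not recorded, so the share among genes with an adjusted p may be higher than 10.3%. By limma-voom 0 were called, against 1.85% of the 13101 genes. The median log2 fold change (titled FOXR2 minus titled Control) was 0.40 over the members and 0.01 over all genes tested, with 8 members fitted above 0 and 2 below. The groups did not overlap in 4 members, Ccnd1, Ccnd2, Cdkn2c and Rb1, all higher under the FOXR2 titles. Over all genes tested the share was 30.3% in either direction and 13.1% in that direction. Of 30 other G1 control genes 1 passed, E2f4, described further on, which was lower in the libraries titled FOXR2.

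**Figure D1:**
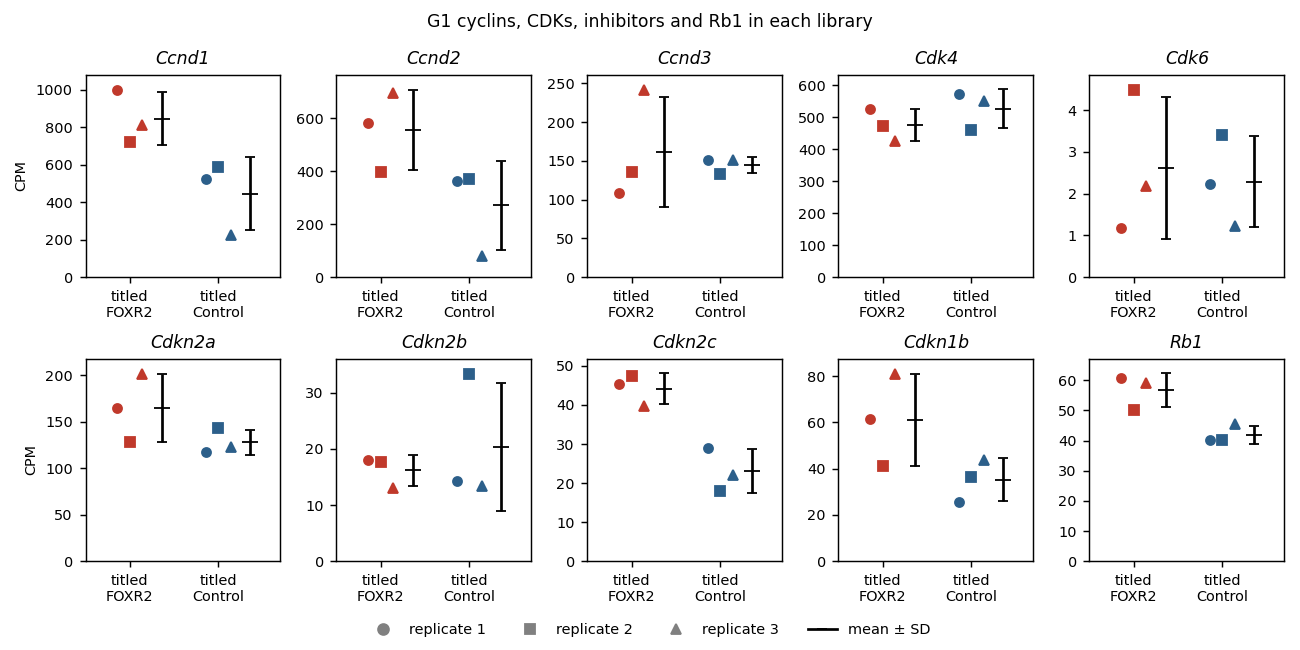
Expression of the 10 members in CPM (vertical axes, each from 0) in the libraries titled FOXR2 (red) and titled Control (blue). Symbols mark replicates and bars the mean ± SD of 3 libraries. The groups do not overlap in Ccnd1, Ccnd2, Cdkn2c and Rb1, as in 30.3% of all genes tested. Control replicate 3 lies far below the rest in Ccnd1 and Ccnd2.

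Ccnd1 encodes cyclin D1, a classical output of growth factor and ERK signaling. It stood at 1000, 723 and 811 CPM under the FOXR2 titles and at 521, 587 and 222 CPM under the Control titles. Every library titled FOXR2 was above every library titled Control, and Control replicate 3 was the lowest of all. The means were 845 ± 142 and 443 ± 195 CPM (SD, n = 3 each), a fitted fold of 1.91 and a log2 fold change of 0.93 ± 0.36 (SE; 95% interval 0.08 to 1.78; edgeR adjusted p = 0.171). Without Control replicate 3 the log2 fold change was 0.61. Mature oligodendrocyte markers summed to 220.3, 5175 and 1434 CPM under the FOXR2 titles and to 1693, 285 and 3888 CPM under the Control titles. Within each title, libraries with a higher sum had less Ccnd1. The part of these cells in the Ccnd1 result was not tested.

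Ccnd2 encodes cyclin D2, the D cyclin best known from neural progenitors of the developing brain. Its levels were 582, 396 and 695 CPM under the FOXR2 titles and 363, 371 and 78.2 CPM under the Control titles. FOXR2 replicate 2 lay just above Control replicates 1 and 2, so the separation of the groups was narrow, while Control replicate 3 stood far below every other library. The log2 fold change was 1.04 ± 0.55 (SE; 95% interval -0.24 to 2.32; edgeR adjusted p = 0.282), and 0.60 without Control replicate 3. Mature oligodendrocyte markers summed to 220.3, 5175 and 1434 CPM under the FOXR2 titles and to 1693, 285 and 3888 CPM under the Control titles. The highest sum under each title was in the library with the lowest Ccnd2 level. The other libraries showed no such order, since FOXR2 replicate 3 exceeded FOXR2 replicate 1 in both. Control replicates 1 and 2 differed in the sum at nearly the same Ccnd2 level. The part of these cells in the result was not tested.

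Ccnd3, for cyclin D3, did not follow the other D cyclins. It stood at 108, 135 and 242 CPM under the FOXR2 titles and at 151, 133 and 151 CPM under the Control titles. The Control libraries lay close together inside the spread of those titled FOXR2, whose highest was replicate 3. Its log2 fold change was 0.16 ± 0.30 (SE; 95% interval -0.55 to 0.87; edgeR adjusted p = 0.782), and -0.26 without FOXR2 replicate 3.

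Levels of different genes were compared per kilobase of the longest annotated coding transcript. On that scale Ccnd1 made up 65.1%, 60.5% and 49.1% of D cyclin transcripts under the FOXR2 titles and 52.0%, 56.3% and 41.4% under the Control titles. Ccnd2 held 19.5% to 24.9% in 5 of the libraries and 8.64% in Control replicate 3, where Ccnd3 supplied 50%. In the other 5 libraries Ccnd3 supplied 12.5% to 26.6%. These shares depend on the length used: per kilobase of merged exons, a length tried after seeing the data, Ccnd1 was the largest in all 6 libraries at 62.9% to 74.1%, and in Control replicate 3 it made up 64.8% and Ccnd3 23.7%. The summed D cyclin level was 391 ± 63.2 CPM per kilobase under the FOXR2 titles and 230 ± 75.5 under the Control titles (SD, n = 3 each), with no overlap between 320 to 441 and 143 to 279. Per kilobase of merged exons the groups did not overlap either, at 211 to 287 and 72.6 to 179. Both sums include Ccnd1 and Ccnd2, whose own groups did not overlap. Of all single genes tested, 30.3% had groups that did not overlap in either direction and 13.1% were higher under the FOXR2 titles.

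**Figure D2:**
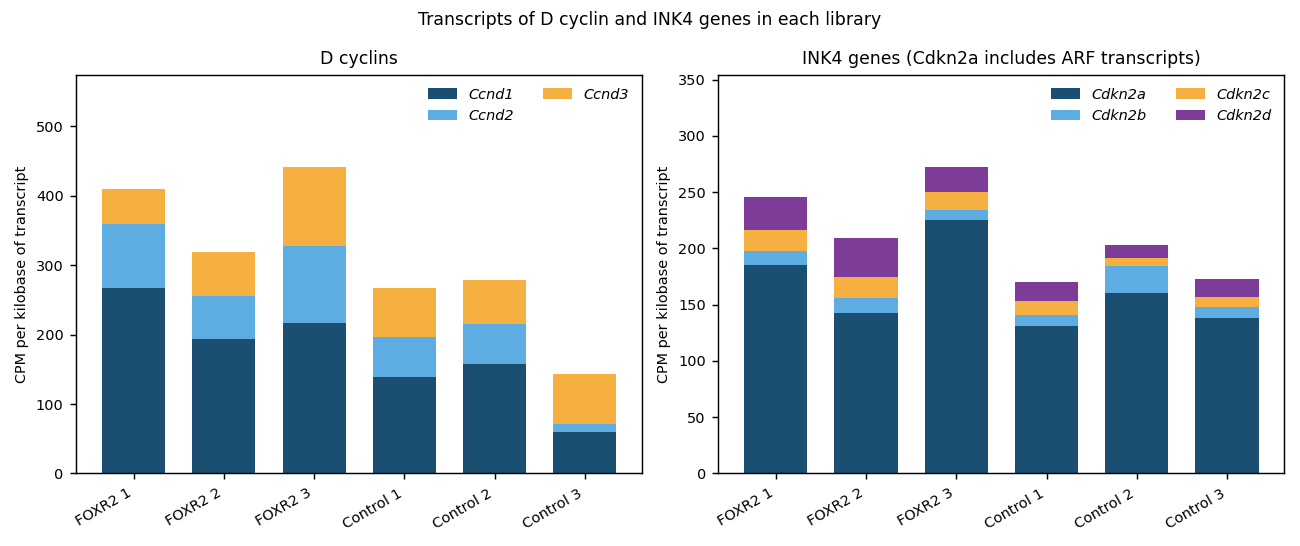
Stacked levels of the D cyclins (left) and the INK4 genes (right) in each library, in CPM per kilobase of transcript, with both axes starting at 0. On this length Ccnd1 is the largest D cyclin segment in 5 libraries and Ccnd3 in Control replicate 3, where Ccnd1 is the largest per kilobase of merged exons. Cdkn2a, whose count pools ARF with INK4a transcripts, fills most of the right bar in all 6.

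Cdk4, a D cyclin kinase far above Cdk6 in transcript level, stood at 527, 474 and 427 CPM under the FOXR2 titles. Under the Control titles it stood at 571, 459 and 551 CPM. The groups overlapped and no library stood apart, with a log2 fold change of -0.15 ± 0.18 (SE; 95% interval -0.57 to 0.27; edgeR adjusted p = 0.650). Tspan31, which shares exon sequence with Cdk4 on the opposite strand over 19.7% of its merged exons, had 2549 to 4802 counts, against 5849 to 9519 for Cdk4. Whether reads were counted by strand is not given in the sources used here, so some of these reads cannot be told apart.

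The promoter of Cdk4 is shown because the kinase had the highest mean level per length among the members, within the spread of Ccnd1 and Cdkn2a, and its upstream sequence is rich in a short motif. RefSeq (build GRCm38.p6) gave start sites for 7 of the 10 members and 10 promoters in all, with no entry for Ccnd1, Ccnd2 and Rb1. The 250 bases before each start were searched on both strands for CACGTG, the E-box bound by MYC family proteins, for CCGGAAGT, an ETS motif, and for the E2F motifs TTTCCCGC, TTTCGCGC, TTTGCCGC and TTTGGCGC. The Cdk4 window on the plus strand (chr10:127063285-127063534) held 4 E-boxes, in capitals, starting 172, 118, 98 and 11 bases before the start.
Cdk4 promoter: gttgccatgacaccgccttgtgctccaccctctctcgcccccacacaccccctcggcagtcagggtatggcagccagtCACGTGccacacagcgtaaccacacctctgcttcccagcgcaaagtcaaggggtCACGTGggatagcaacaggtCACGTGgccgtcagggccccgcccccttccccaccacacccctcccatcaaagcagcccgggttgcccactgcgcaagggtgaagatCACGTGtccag
Among 32851 promoters of the same length, 6.02% held an E-box, 2.88% the ETS motif and 1.86% an E2F motif. Of the 10 member promoters, that of Cdk6 held 1 E-box, a Cdkn2a promoter shown further on held an E2F motif, and the ETS motif was found in 0. A match is a description of letters and not a measured site.

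Cdk6, the other D cyclin kinase, was barely detected, with 18, 71 and 30 counts under the FOXR2 titles and 37, 57 and 21 counts under the Control titles. This corresponded to 1.17, 4.49 and 2.19 CPM against 2.22, 3.40 and 1.22 CPM. Its highest value was in FOXR2 replicate 2, the library with microglia and macrophage markers, whose part in the value was not tested. The fitted log2 fold change of 0.20 ± 0.62 (SE; 95% interval -1.26 to 1.66; edgeR adjusted p = 0.867) turned to -0.44 without that library. Per kilobase, Cdk6 made up 0.0394% to 0.169% of the summed Cdk4 and Cdk6 level.

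Among the inhibitors, Cdkn2c had the smallest p of all members. It encodes an INK4 protein known from cell cycle exit in the developing nervous system. Cdkn2c stood at 45.3, 47.4 and 39.8 CPM under the FOXR2 titles and at 29.1, 18.1 and 22.0 CPM under the Control titles. The groups did not overlap, and the Control libraries were the more spread, from 18.1 to 29.1 CPM. The means were 44.1 ± 3.94 and 23.1 ± 5.59 CPM (SD, n = 3 each), a fitted fold of 1.91 and a log2 fold change of 0.93 ± 0.23 (SE; 95% interval 0.40 to 1.47). The adjusted p was 0.0722 by edgeR, which missed the threshold, and 0.00902 by DESeq2. Over all alternatives the log2 fold change ran from 0.79 to 1.13 and the adjusted p from 0.00902 to 0.218.

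Cdkn2a, which encodes both the INK4a inhibitor and the ARF activator of p53 from separate first exons, was abundant. Its levels were 165, 128 and 201 CPM under the FOXR2 titles and 117, 143 and 123 CPM under the Control titles. FOXR2 replicates 1 and 3 were the highest, and FOXR2 replicate 2 lay within the Control range. The log2 fold change was 0.37 ± 0.21 (SE; 95% interval -0.14 to 0.87; edgeR adjusted p = 0.334). With INK4a and ARF transcripts counted together, Cdkn2a made up 68.2% to 82.5% of the summed level per kilobase of the 4 INK4 genes, Cdkn2d included, and the part of it that is INK4a is unknown.

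The table gives a single count for Cdkn2a, in which both kinds of transcript are pooled. Their separate promoters are shown because the count cannot tell them apart. The distal window (minus strand, chr4:89294620-89294869) lies before the ARF first exon and held an E2F motif, in capitals, starting 99 bases before the start. The proximal window (minus strand, chr4:89282193-89282442) lies before the INK4a first exon and held none of the motifs searched.
Cdkn2a distal promoter: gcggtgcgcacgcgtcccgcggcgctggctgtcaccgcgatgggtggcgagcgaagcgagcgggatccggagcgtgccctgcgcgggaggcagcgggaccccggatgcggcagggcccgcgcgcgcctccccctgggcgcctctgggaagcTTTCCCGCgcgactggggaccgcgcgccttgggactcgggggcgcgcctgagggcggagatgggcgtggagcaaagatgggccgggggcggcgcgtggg
Cdkn2a proximal promoter: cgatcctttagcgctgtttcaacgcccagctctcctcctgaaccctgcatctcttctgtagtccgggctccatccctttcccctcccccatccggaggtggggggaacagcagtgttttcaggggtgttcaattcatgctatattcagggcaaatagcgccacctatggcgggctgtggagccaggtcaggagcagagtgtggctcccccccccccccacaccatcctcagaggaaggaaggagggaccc

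Cdkn2b, the neighbor of Cdkn2a on chromosome 4 and an INK4 inhibitor induced by TGF-beta, was much less abundant. It stood at 18.0, 17.6 and 13.0 CPM under the FOXR2 titles and at 14.2, 33.4 and 13.3 CPM under the Control titles. Control replicate 2 was the highest, and the other 5 libraries lay between 13.0 and 18.0 CPM. Its fitted log2 fold change was -0.33 ± 0.40 (SE; 95% interval -1.25 to 0.60; edgeR adjusted p = 0.651), and 0.24 without Control replicate 2.

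Cdkn1b, whose protein restrains CDK2 and is degraded as cells enter S phase, stood at 61.3, 41.3 and 81.1 CPM under the FOXR2 titles. Under the Control titles the values were 25.4, 36.2 and 43.9 CPM. FOXR2 replicate 2 lay within the Control range, and FOXR2 replicates 1 and 3 were above it. Its fitted log2 fold change was 0.80 ± 0.31 (SE; 95% interval 0.08 to 1.52; edgeR adjusted p = 0.168), and it ranged from 0.54 to 1.01 as each library was left out.

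Rb1, the target of the D cyclin kinases, varied least from library to library among the members whose groups did not overlap. It stood at 60.7, 50.2 and 58.9 CPM under the FOXR2 titles and at 40.1, 40.3 and 45.4 CPM under the Control titles. The difference was small, with a fitted fold of 1.35 and a log2 fold change of 0.43 ± 0.17 (SE; 95% interval 0.04 to 0.83; edgeR adjusted p = 0.171). Corrected for transcript length and GC content it was 0.29. Rcbtb2, which overlaps 8.11% of the Rb1 exons on the opposite strand, had 696 to 1516 counts, against 669 to 930 for Rb1. Its own log2 fold change was 0.69 (edgeR adjusted p = 0.161), and its part in the Rb1 count was not tested.

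Ranked by level per kilobase over the 6 libraries, Cdk4 came first at 244 ± 27.6 CPM per kilobase, followed by Ccnd1 at 172 ± 71.6 and Cdkn2a at 163 ± 35.7 (SD, n = 6). Their ranges overlapped, at 208 to 278, 59.2 to 267 and 131 to 225 CPM per kilobase, so the order among them is within the spread. Ccnd3 (72.7 ± 21.9) and Ccnd2 (65.4 ± 33.5) came next and overlapped each other. Their order depends on the length used, since per kilobase of merged exons the means were 44.0 for Ccnd2 and 17.5 for Ccnd3. Cdkn2c, Cdkn2b, Cdkn1b and Rb1 formed a lower tier at 13.6, 13.1, 10.6 and 10.6 CPM per kilobase with overlapping ranges. Cdk6 came last at 0.212 ± 0.112 CPM per kilobase, below every other member in every library.

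**Figure D3:**
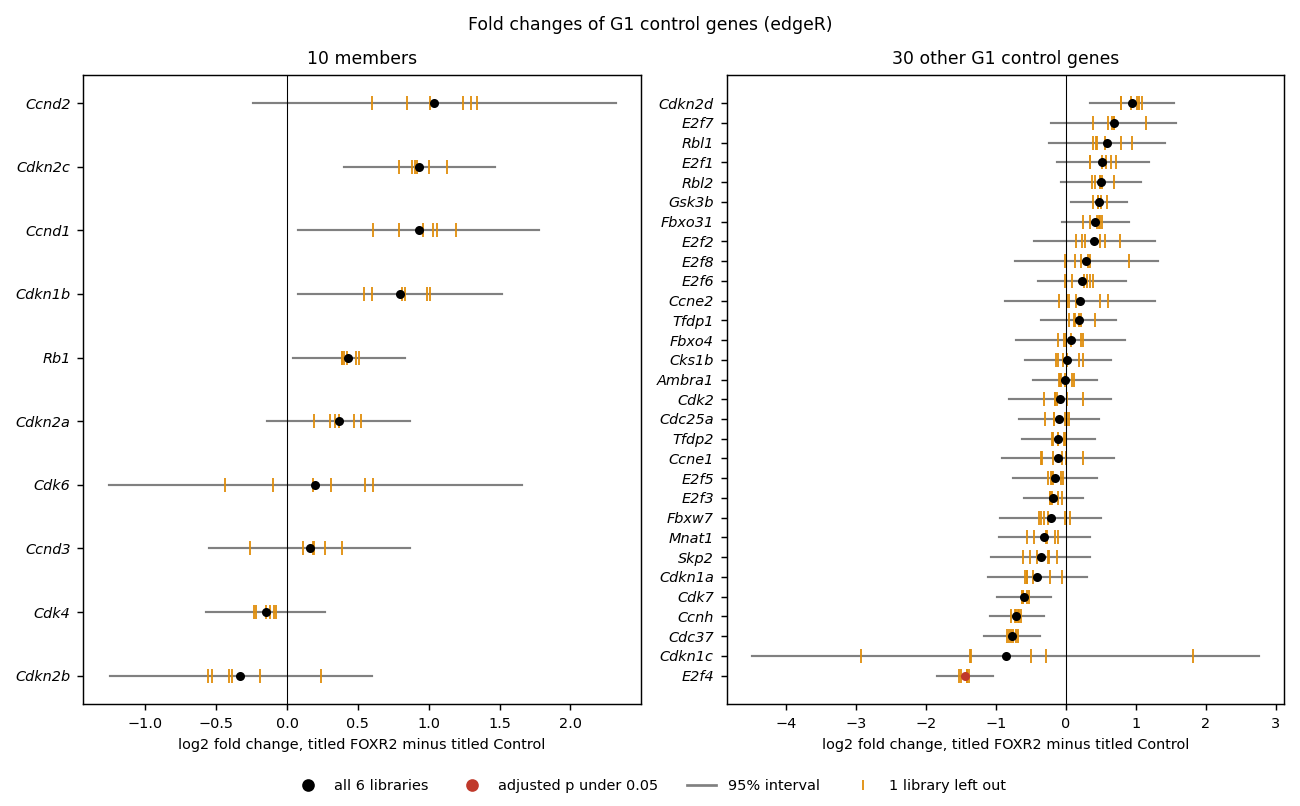
Log2 fold changes of the 10 members (left) and the 30 other G1 control genes (right), libraries titled FOXR2 minus titled Control, with 95% intervals from edgeR. Orange ticks give the fit with 1 library left out and red marks an adjusted p under 0.05. E2f4 is the single red point, and the ticks of Ccnd1 and Ccnd2 spread more widely than those of Cdkn2c and Rb1.

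The remaining machinery of G1 was read from a list of 30 further regulators, all tested. The E2F factors and their partners, cyclin E, CDK2, the other inhibitors, the CDK-activating kinase and the degradation factors were among them. E2f4 was lower in the libraries titled FOXR2 and was the only 1 of the 30 called, where 2.29% of all genes were called. By edgeR 6 of the 30 had an unadjusted p under 0.05, against 24.9% of all genes. The groups did not overlap in 4 genes higher and 4 lower under the FOXR2 titles, against 30.3% of all genes in either direction. The median log2 fold change of the list was -0.05, with 14 genes fitted above 0 and 16 below.

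E2f4 encodes an E2F factor that works mainly as a repressor with the RB relatives of quiescent cells. It stood at 24.7, 27.3 and 24.7 CPM under the FOXR2 titles and at 75.9, 71.8 and 61.5 CPM under the Control titles. The groups were tight and far apart, at 25.6 ± 1.52 against 69.7 ± 7.44 CPM (SD, n = 3 each). The log2 fold change was -1.45 ± 0.17 (SE; 95% interval -1.85 to -1.04; edgeR adjusted p = 0.0283). The size held between -1.53 and -1.35 over all alternatives, whose adjusted p ran from 1.01e-08 (DESeq2) to 0.138. The call was lost without FOXR2 replicate 1 or 3 (adjusted p = 0.0580 and 0.110), without Control replicate 1, 2 or 3 (0.107, 0.138 and 0.0585), with the replicate number as a block (0.114) and with animal sex as a covariate (0.0940).

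The genes with the next smallest p in that list missed the threshold. Their groups did not overlap, as in 30.3% of all genes, and a choice by small p favors such genes. Cdc37, the HSP90 co-chaperone that delivers CDK4 and other kinases, averaged 176 ± 15.4 CPM under the FOXR2 titles and 299 ± 29.0 under the Control titles (SD, n = 3 each; log2 fold change -0.77 ± 0.17, edgeR adjusted p = 0.0614). Ccnh and Cdk7, the cyclin and kinase of the CDK-activating kinase, had log2 fold changes of -0.71 ± 0.16 and -0.60 ± 0.16 (edgeR adjusted p = 0.0664 and 0.0880). Ccnh stood at 43.1, 42.3 and 39.3 CPM under the FOXR2 titles and at 60.6, 73.2 and 69.6 CPM under the Control titles. Mnat1, the assembly factor of the same kinase and singled out later, overlapped between groups at -0.31 ± 0.28 on the log2 scale.

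Cdkn2d, the INK4 gene outside the 10 members, had values close to those of Cdkn2c. It stood at 41.7, 49.5 and 31.7 CPM under the FOXR2 titles and at 24.3, 16.2 and 23.5 CPM under the Control titles. The groups did not overlap, and Cdkn2d had a fitted value of 0.94 ± 0.26 on the log2 scale (SE; 95% interval 0.34 to 1.54; edgeR adjusted p = 0.0896). DESeq2 called Cdkn2d higher and Cdc37, Ccnh, Cdk7 and E2f4 lower, 5 of the 30 genes. It called 10.3% of the 18299 genes it gave a p-value. These include genes that the low-count filter removed from the edgeR fit and may include genes without an adjusted p.

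**Figure D4:**
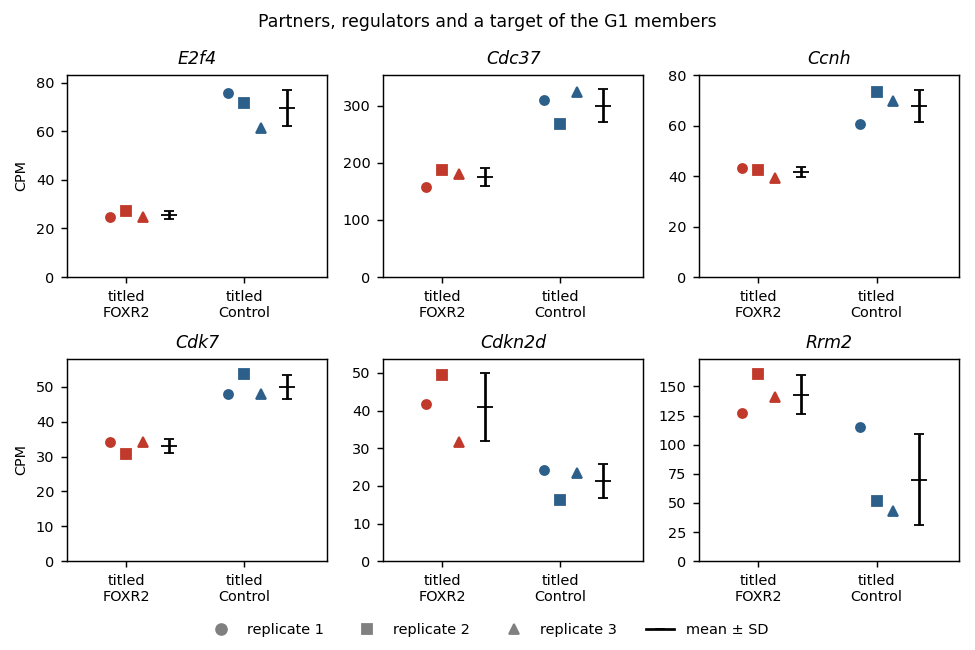
Expression in CPM (vertical axes, each from 0) of E2f4, Cdc37, Ccnh, Cdk7, Cdkn2d and Rrm2 in the libraries titled FOXR2 (red) and titled Control (blue). Symbols mark replicates and bars the mean ± SD of 3 libraries. The genes were chosen by small p, and all 6 have groups that do not overlap, as have 30.3% of all genes tested. E2f4 is the furthest apart on the fold scale.

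The CIP and KIP relatives of Cdkn1b were singled out after their values were seen. Cdkn1a, the CDK inhibitor best known as a p53 target, averaged 133 ± 30.3 CPM under the FOXR2 titles and 176 ± 65.5 CPM under the Control titles (SD, n = 3 each), with overlapping groups (edgeR adjusted p = 0.440). Cdkn1c, an imprinted inhibitor, varied more than any member, at 21.7, 120 and 1.02 CPM under the FOXR2 titles and 16.2, 10.7 and 232 CPM under the Control titles. Its 2 highest libraries, FOXR2 replicate 2 and Control replicate 3, were also those with the highest sums of mature oligodendrocyte markers, 5175 and 3888 CPM. The part of these cells in the Cdkn1c level was not tested. Its log2 fold change was -0.86 ± 1.55, and 1.81 without Control replicate 3.

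Genes that E2F factors drive at the start of S phase gave no call between titles. Of 28 such genes, all tested, edgeR, DESeq2 and limma-voom called 0, against 2.29%, 10.3% and 1.85% of all genes. These shares are of 18299 genes for DESeq2, some of which may lack an adjusted p, and of 13101 for the others. By edgeR 1 had an unadjusted p under 0.05, against 24.9% of all genes. The median log2 fold change of the list was 0.05, with 16 genes fitted above 0 and 12 below. The gene with the lowest p was Rrm2, a subunit of ribonucleotide reductase, at 127, 161 and 141 CPM under the FOXR2 titles and 115, 51.9 and 42.9 CPM under the Control titles (log2 fold change 1.03 ± 0.37, edgeR adjusted p = 0.150). Control replicate 1 lay near the libraries titled FOXR2 and the other Controls well below. Ccna2, for cyclin A2, was fitted at 0.73 ± 0.40 on the log2 scale (edgeR adjusted p = 0.301). The replication factors Rfc4, Orc1 and Rfc3 followed by p, at -0.41, -0.63 and -0.31 on the log2 scale, and their groups overlapped. Without Control replicate 1 the median of the list was 0.34 and 5 of its 28 genes had an unadjusted p under 0.05, against 20.9% of all genes, with 0 called by edgeR. Without Control replicate 3 the median was -0.12.

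The gene whose library pattern was most like that of each member was taken as the smallest root mean square difference between centered log2 CPM values over the 6 libraries, among 12403 named genes. For Ccnd1 it was the ETS factor gene Ets1, at 129, 74.7 and 102 CPM under the FOXR2 titles and 66.3, 65.6 and 26.1 CPM under the Control titles. The difference was 0.114 on the log2 scale, beside a spread of 0.695 for Ccnd1 itself. For Cdkn2c it was the neuronal splicing factor gene Nova1 (0.0677), for Cdk4 the anaphase-promoting complex gene Anapc11 (0.0205) and for Cdkn2b the growth factor gene Bmp2 (0.116). Ccnd2 was nearest to Sez6 (0.211), Ccnd3 to Tssc1 (0.0797), Cdk6 to B4galt1 (0.121), Cdkn2a to Zfp746 (0.0361), Cdkn1b to Gng2 (0.112) and Rb1 to Lmbrd1 (0.0566). With 6 libraries and this many candidates a close match to any pattern is easily found, so these are descriptions of the libraries.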

How the data were processed

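Poly(A)-selected RNA was prepared with a stranded library kit, per the labels' protocols. The authors deposited whole-number read counts per gene symbol. TopHat, DESeq2 and hg19, a human build, are named in the submitters' processing notes, although the symbols are those of mouse. No counting tool, annotation or strand setting is given in the sources used here. The 10 members and the gene lists were chosen with earlier results of these data known.

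Counts were fitted with edgeR 4.0.16 (R 4.3.3) after filterByExpr (count minimum 10), with TMM factors, a quasi-likelihood F test of 3 against 3 libraries and Benjamini-Hochberg adjustment over 13101 genes. Genes with an adjusted p under 0.05 were called. CPM are TMM-scaled, and 3 counts equal 0.174 to 0.219 CPM. Log2 fold changes use a prior count of 0.125, and SE is the fold change divided by the square root of F. Transcript lengths and exon overlaps came from GENCODE M21 by symbol. Likeness used log2(CPM + 0.5). The genes named were all members, any called gene and the 5 smallest p-values of each pathway list, and the gene most like each member. Others from the pathway lists are marked as singled out later. Libraries of the same title differed by more than sampling noise (the lowest median chi-square of a pair was 8.37). The fit was tested on simulated counts. Alternatives were RLE factors, total counts, DESeq2 1.42.0, limma-voom 3.58.1, no filter, the replicate block and each library left out. Animal sex, read from Xist and Y-linked genes, and a length and GC offset (mgcv 1.9.3) were added after seeing the data.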

Additional observations from a re-analysis of the deposited data

How the results depend on the processing

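The 0 calls among members were also found under all alternatives except DESeq2, which called 1. The 1 call among the other G1 control genes became 5 with DESeq2, 2 with the length and GC offset (97.7% of genes had both values), 0 with animal sex as a covariate and 0 with the replicate block, and ranged from 0 to 1 as each library was left out. Over all genes the 300 calls became 1880 with DESeq2, which tested 18299 genes without the low-count filter. They became 7 with animal sex and 0 with the replicate block (2652 at an unadjusted p under 0.05 by edgeR). Without FOXR2 replicate 1, 2 or 3 they became 2, 205 and 1, and without Control replicate 1, 2 or 3 they became 1, 1 and 10. The causes were not tested. Same-numbered libraries did not deviate together (correlations of -0.241 to -0.0104 across genes). The labels do not say whether the number pairs libraries, and 3 pairs are too few to settle it.

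Fitted values changed sign, with no call on either side, for Cdk6 without FOXR2 replicate 2 (-0.44), without Control replicate 3 (-0.10) and with the length and GC offset (-0.09), for Ccnd3 without FOXR2 replicate 3 (-0.26) and for Cdkn2b without Control replicate 2 (0.24). As each library was left out, Cdk6 ranged from -0.44 to 0.61, Ccnd3 from -0.26 to 0.39 and Cdkn2b from -0.56 to 0.24. No scaling moved the median of all genes by as much as 0.1 on the log2 scale. With 3 libraries a group, the 95% intervals of Ccnd1, Ccnd2, Cdk6, Cdkn2b, Cdkn2c and Cdkn1b reach past 1 in size on the log2 scale, so differences of that size are within them.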
